A study of Mus musculus with 1248 samples.

Results

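The mouse mammary carcinoma line 4T1.2 was compared with its parental line 4T1, both in culture and both sequenced as single cells. A cell entered if 1000 or more genes were detected, if its genes (without spike-in and reporter entries) summed to 50000 counts or more, and if no more than 25% of them were mitochondrial. This kept 53 of 54 cells of 4T1.2 and 54 of 54 cells of 4T1, together 107 of the 1218 cells of the series that passed. The 4T1.2 cell left out held 5488 counts. The study profiled single cells of these lines by Smart-seq2, which primes poly(A) RNA with oligo-dT and reads whole transcripts, in culture, in the bones of injected mice and, for 4T1, in a mammary fat pad tumour.

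4T1 is an established line from a mammary tumour of a BALB/c mouse and spreads from the breast to distant organs in syngeneic hosts. 4T1.2 is a clone derived from 4T1 that is known for metastasis to bone, so every difference between the lines is also one between a single clone and a mixed parental population. Both lines carried firefly luciferase and mCherry, all sequenced cells were sorted as mCherry-positive, and wells with an mCherry Ct above 30 in qPCR were discarded before sequencing, in both groups alike. The cells of the cultures received no injection or drug named in the labels. The labels give these cells the same host (female BALB/c mice) and the same metastatic cell type as the cells from mice, and the word for the cell line in their titles is what marks them as cultured. They name no culture, passage, medium or plate. Each line was therefore 1 sample, no difference between the lines was tested, and differences between the lines cannot be told apart from differences between 2 dishes or 2 plates.

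Epithelial cells hold together through E-cadherin junctions, tight junctions and desmosomes, and rest on a basement membrane through integrins and laminin. In the epithelial to mesenchymal transition, repressors of the SNAIL and ZEB families bind E-box sequences near the start of epithelial genes, junction genes go down, and mesenchymal genes such as vimentin go up. Carcinoma cells often hold intermediate states between these poles, and the balance of proteases, secreted cytokines and adhesion molecules affects how they invade and settle in bone.

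Depth was alike in the lines. Passing cells held between 1189510 and 6518580 counts in 4T1.2 and between 294795 and 5468263 in 4T1, with medians of 3054736 and 2981083. The median cell had 11372 detected genes in 4T1.2 and 11295 in 4T1, and 2.83% and 2.68% mitochondrial counts. Summed over cells, the lines held 176172880 and 162200680 counts. Levels are given as CPM, the counts of a gene relative to all gene counts of these sums, scaled with TMM factors, and the exact 95% Poisson interval of a level of 20 CPM or more reached at most 3.46% above it. These intervals cover the counting of reads only. Since the reads carried no molecular barcodes, the intervals do not cover error in counting molecules, nor the spread between cells. Ratios are log2 of CPM plus 5, 4T1.2 over 4T1, and a positive ratio means a higher level in 4T1.2.

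The markers of a mammary tumour cell were present in both lines but unevenly. All 13 were lower in 4T1.2, 8 of them at least 2-fold, with a median log2 ratio of −3.51, and Krt14, Krt19, Epcam and Cdh1 stood under 3 CPM in 4T1.2. Krt8 and Krt18, the paired keratins of simple epithelium, together reached at least 402 CPM in every 4T1.2 cell and at least 1017 CPM in every 4T1 cell. Markers of other cell types were low but not equal. Of 10 neutrophil markers 5 reached 5 CPM, and all 5 were at least 2-fold higher in 4T1.2. The 10 markers together stood between 0 and 678 CPM per 4T1.2 cell with a median of 24.3, and between 0 and 337 CPM per 4T1 cell with a median of 0.345. S100a9 had a count in 17 4T1.2 cells and 3 4T1 cells. The pan-haematopoietic markers summed to a median of 2.07 CPM per 4T1.2 cell and 0 per 4T1 cell. Without every cell holding an S100a9 count, which leaves 36 and 51 cells, 428 genes were at least 2-fold higher and 481 lower, against 422 and 462 with all cells. The 10 macrophage markers summed to between 0 and 190.2 CPM per 4T1.2 cell (median 7.80) and between 0 and 50.0 CPM per 4T1 cell (median 6.72), with 13 4T1.2 cells above all 4T1 cells. The medians of the fibroblast markers were 8.49 and 0.718 CPM, with Col3a1 and Dcn at 0 counts in both lines. Those of the endothelial markers were 32.3 and 16.4 CPM, with Tek and Emcn at 0 and 1 of 10 markers measured. Erythroid markers had medians of 1.57 and 0 CPM, B cell markers of 0.365 and 0.387 CPM, and T and NK cell markers of 0 in both. The source of these counts, and their part in the differences described here, was not tested.

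Of 10120 genes with at least 5 CPM in either line, 422 (4.17%) were at least 2-fold higher in 4T1.2 and 462 (4.57%) at least 2-fold lower, together 8.74%. These shares are the background for the counts of list members in culture. The median log2 ratio of all measured genes was 0.05. At least 8-fold apart were 24 genes higher and 29 lower in 4T1.2. For 0 genes did every cell of a line lie above every cell of the other (0.0%), so the lines overlapped in each single gene. The plot of summed levels shows most genes near the diagonal and a group of epithelial genes near the floor of the 4T1.2 axis.

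**Figure D1:**
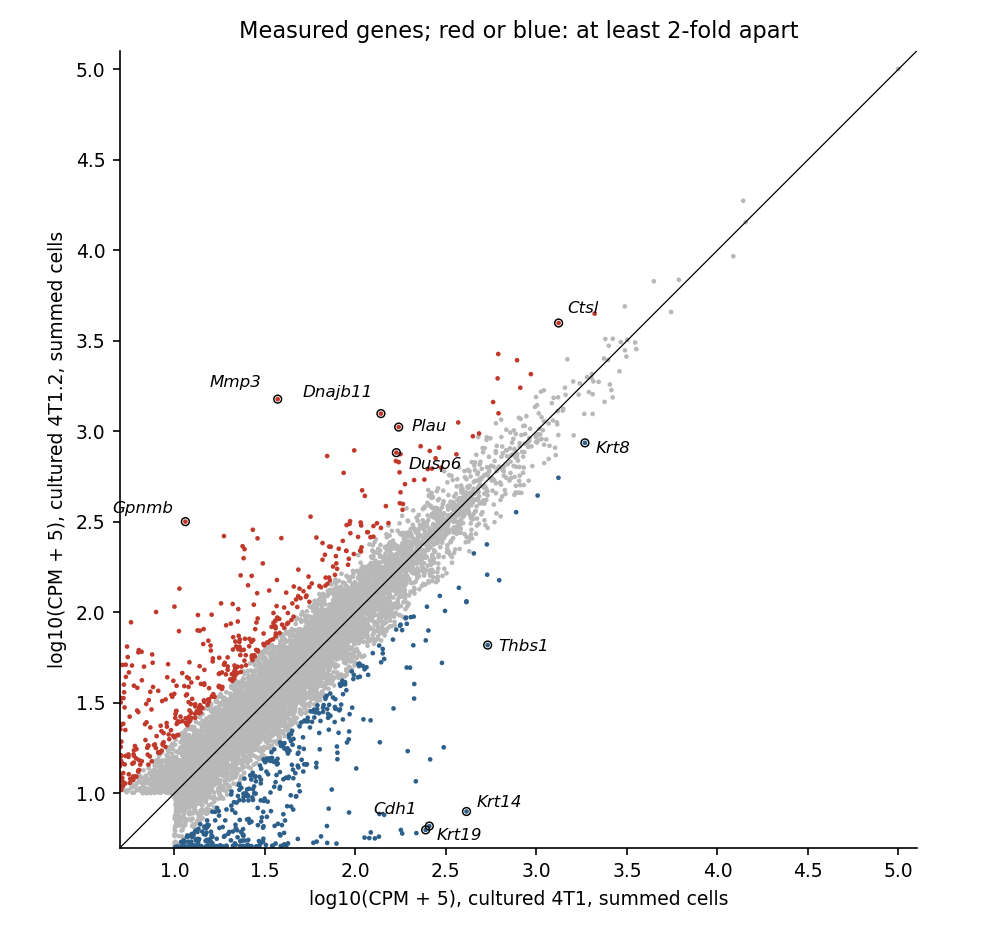
Level of each of the 10120 measured genes in cultured 4T1 (horizontal) and cultured 4T1.2 (vertical), as log10 of CPM plus 5 over summed cells, with the line of equal levels. Red points are the 422 genes at least 2-fold higher in 4T1.2, blue points the 462 at least 2-fold lower, and circled genes are named in the text.

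Epithelial junction genes were mostly lower in 4T1.2. Of 31 measured genes on the list of epithelial junctions and adhesion 21 were at least 2-fold lower in 4T1.2 and 0 higher, where 4.57% of all measured genes were lower and 4.17% higher, and the list's median log2 ratio was −1.60. Cdh1 encodes E-cadherin, the adhesion molecule of adherens junctions. Single 4T1.2 cells held 0 CPM of Cdh1 at the lowest, 1.77 at the median and 15.1 at the highest, and 4T1 cells 2.33, 249.7 and 657 CPM. The medians were far apart, and 49 of 54 4T1 cells lay above every 4T1.2 cell, while the rest overlapped with them. Summed, Cdh1 was at 1.60 CPM in 4T1.2 (95% interval 1.41 to 1.80) and 251 in 4T1 (249 to 254), a log2 ratio of −5.28.

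Epcam encodes a homophilic adhesion molecule of epithelial cells. Its lowest, median and highest cell stood at 0, 1.41 and 3.43 CPM in 4T1.2, and at 0.292, 96.5 and 896 CPM in 4T1. The range within 4T1 was wide, with 46 cells above all 4T1.2 cells and the other 8 among them, and the summed level was 1.03 against 212 CPM, log2 ratio −5.17. The tight junction claudins were low as well: Cldn7 was at 0.766 against 129.9 CPM and Cldn4 at 0.697 against 107 CPM, log2 ratios −4.55 and −4.30. Cldn3 differed less, at 60.7 against 204 CPM, log2 ratio −1.67. In single 4T1 cells Cldn7 ran from 0 over 38.8 to 855 CPM, and 39 cells exceeded the highest 4T1.2 cell at 3.78 CPM.

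Other parts of the junctions differed in the same direction. The desmosome genes Dsg2, Dsp and Dsc2 stood at 0.0929, 0.528 and 0.0813 CPM in 4T1.2 against 21.3, 20.6 and 11.4 CPM in 4T1. Jup, whose product plakoglobin links cadherins to the cytoskeleton, was at 35.2 against 206 CPM, and Perp, a desmosomal membrane protein gene, at 12.1 against 189.5 CPM. Esrp1 and Esrp2 encode the splicing factors of the epithelial programme. They were at 0.139 and 8.90 CPM in 4T1.2 against 20.3 and 43.4 in 4T1. Crb3, an apical polarity gene, was at 0.395 against 10.3 CPM. The 10 members within 2-fold included the catenins, which join cadherins to actin: Ctnnb1 was at 310.1 against 321 CPM and Ctnna1, the member furthest the other way, at 354 against 277 CPM, log2 ratio 0.35. Tjp1, encoding the scaffold ZO-1, was at 20.1 against 18.0 CPM, log2 ratio 0.13.

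**Figure D2:**
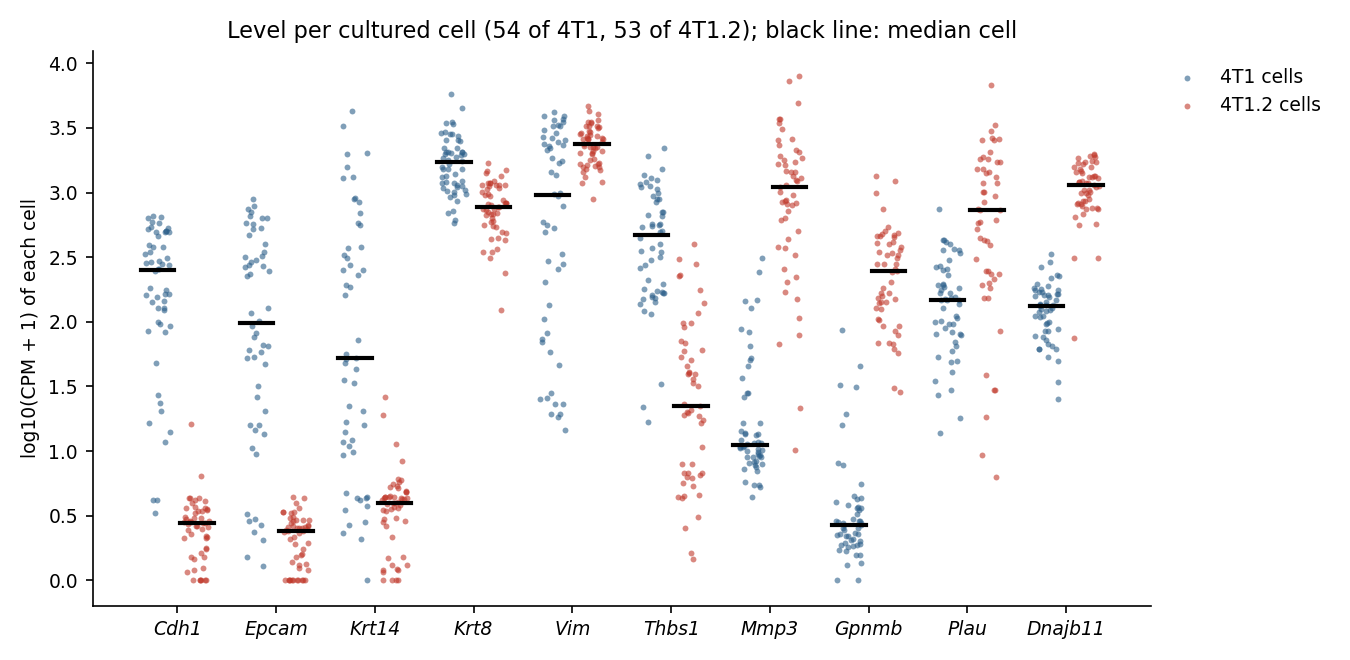
Level of 10 genes in every cultured cell, as log10 of CPM plus 1 on the vertical axis, for 54 cells of 4T1 (blue) and 53 of 4T1.2 (red), where each point is a cell and each black line the median cell. Cdh1, Epcam and Krt14 span a wide range in 4T1 and sit near the bottom in 4T1.2, whereas Mmp3, Gpnmb, Plau and Dnajb11 are higher in the median 4T1.2 cell and Vim is high in all 4T1.2 cells.

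The sequence before the start of these genes is shown because E-boxes of the form CACCTG, read CAGGTG on the other strand, are what SNAIL and ZEB repressors recognise. RefSeq promoters (GRCm38.p6) matched 10 of the 21 junction genes that were lower in 4T1.2, Cdh1 not among them. In the 200 bases before the start, 6 of the 10 held the letters in either orientation at some listed start. This was 60.0% of these genes, against 14.1% of the 7923 measured genes with a promoter and 28.6% of the 7 matched list members that were not 2-fold lower. Among all genes at least 2-fold lower in 4T1.2 the share was 26.6% of 319, and among those higher 17.7% of 311. The matched lower junction genes without the letters were Cldn3, Jup, Dsp and Marveld2. A gene with more listed starts has more chances of a match, and the shares were not corrected for this. Among the genes with the letters, Cldn7, Ocln, Tjp3 and Crb3 had 2 listed starts each, and Epcam and Cldn4 had 1. Marveld2 also had 2, and Cldn3, Jup and Dsp had 1. The stretches printed below are picked examples that all hold matches, and Sfn is outside the junction list. Sfn encodes 14-3-3 sigma, an epithelial cell cycle protein. The 200 bases of 3 junction genes and of Sfn follow from 5′ to 3′ on the gene's strand. They end at the base before the start, with the E-box letters in capitals. They lie at chr17:87635779-87635978 (plus strand) for Epcam, chr5:134946935-134947134 (minus) for Cldn4, chr17:57062001-57062200 (plus) for Crb3 and chr4:133602169-133602368 (minus) for Sfn.
Epcam: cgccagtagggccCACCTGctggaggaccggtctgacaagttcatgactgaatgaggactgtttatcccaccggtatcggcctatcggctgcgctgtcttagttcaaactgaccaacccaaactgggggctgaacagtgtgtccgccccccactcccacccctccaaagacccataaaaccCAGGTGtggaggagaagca
Cldn4: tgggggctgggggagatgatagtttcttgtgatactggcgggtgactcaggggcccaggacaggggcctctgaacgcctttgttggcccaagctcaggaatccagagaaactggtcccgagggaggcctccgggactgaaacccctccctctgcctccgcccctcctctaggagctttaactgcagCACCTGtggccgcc
Crb3: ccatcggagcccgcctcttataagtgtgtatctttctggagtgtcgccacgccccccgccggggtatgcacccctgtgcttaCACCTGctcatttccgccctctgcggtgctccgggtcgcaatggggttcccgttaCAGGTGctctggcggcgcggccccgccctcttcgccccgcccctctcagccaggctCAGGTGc
Sfn: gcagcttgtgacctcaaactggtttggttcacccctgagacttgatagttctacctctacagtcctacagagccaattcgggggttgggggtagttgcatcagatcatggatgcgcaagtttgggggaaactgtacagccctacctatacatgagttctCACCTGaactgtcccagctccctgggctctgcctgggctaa
Epcam held matches 187 and 19 bases before its start, Cldn4 14 bases, Crb3 118, 63 and 7 bases, and Sfn 41 bases before it. Sfn itself stood at 1.28 against 173 CPM, log2 ratio −4.83, and 51 of 54 4T1 cells lay above all 4T1.2 cells. A match is a description of the letters and not a bound site. Of the factors that bind such letters, Zeb2 was at 38.3 against 16.2 CPM, log2 ratio 1.03, falling to 0.98 when totals were used without TMM, and the median cell held 36.9 CPM in 4T1.2 and 6.96 CPM in 4T1. Zeb1 was at 0.215 against 0.133 CPM, Snai2 at 0 against 0.766 CPM, and Snai1 at 37.6 against 50.0 CPM, log2 ratio −0.37.

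Keratins, the intermediate filaments of epithelial cells, were all lower in 4T1.2, by very different amounts. Of 8 measured keratins 8 had a log2 ratio under 0, 4 were at least 2-fold lower in 4T1.2 and 0 higher, with a median log2 ratio of −0.95. Krt14, the basal cell keratin, had the log2 ratio furthest below 0 of all genes named by the rule for named genes, at 2.94 against 406 CPM, log2 ratio −5.69. Its cells ran from 0 over 3.01 to 25.3 CPM in 4T1.2 and from 0 over 51.3 to 4251 CPM in 4T1. The 4T1 sum thus came from part of its cells, and 32 of them lay above all 4T1.2 cells. Krt19, a keratin of simple epithelium, was at 1.28 against 239 CPM, log2 ratio −5.28, with 2.00, 189 and 1104 CPM in the lowest, median and highest 4T1 cell, with 52 cells above the highest 4T1.2 cell at 3.92 CPM. Krt8 and Krt18 remained high in both lines: Krt8 was at 858 against 1849 CPM, log2 ratio −1.10, and Krt18 at 733 against 1274 CPM, log2 ratio −0.79. Krt7, another simple keratin, was at 564 against 804 CPM, log2 ratio −0.51.

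Transcription factors of epithelial identity were divided. Of 9 measured factors 5 were at least 2-fold lower and 1 higher in 4T1.2, and the median log2 ratio was −1.06. Grhl2, which activates junction genes, was at 0.134 against 30.0 CPM, log2 ratio −2.77, and 48 of 54 4T1 cells exceeded all 4T1.2 cells. Ovol1 and Elf3, both factors of epithelial differentiation, were at 0.0871 against 18.2 CPM and at 6.08 against 43.5 CPM. Sox9, a progenitor factor, was at 79.3 against 171 CPM, log2 ratio −1.06. Gata3, the luminal mammary factor, stood at 262 against 222 CPM, log2 ratio 0.23, less than 2-fold apart. Tfap2c, another factor of luminal mammary cells, went the other way at 14.3 against 0.0965 CPM, log2 ratio 1.92, with a highest 4T1 cell of 1.18 CPM and 27 of 53 4T1.2 cells above it.

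Genes for contacts to the basement membrane went both ways. Of 25 measured integrin and laminin genes (the list also holds the matrix ligands fibronectin, thrombospondin and tenascin) 11 were at least 2-fold lower and 3 higher in 4T1.2, and the median log2 ratio was −0.12. Lama3 and Lamb3 encode chains of laminin-332, the anchor of basal epithelium, and were at 0.290 against 37.4 CPM and at 2.61 against 139 CPM. In 4T1 cells Lamb3 ran from 0 over 133 to 498 CPM, and 39 cells exceeded the highest 4T1.2 cell at 38.0 CPM. Itgb4, the integrin chain that binds laminin-332 in hemidesmosomes, was at 8.94 against 55.8 CPM, log2 ratio −2.13, and Itgb6, the epithelial chain that helps activate TGF-beta, at 0.215 against 20.4 CPM, log2 ratio −2.28. Itgb1, the shared beta chain of many integrins, was at 437 against 1010.5 CPM, log2 ratio −1.20. The 3 genes higher in 4T1.2 were Itgb7, a chain best known from lymphocytes (95.4 against 2.92 CPM, log2 ratio 3.66), Itgb3, the vitronectin receptor chain (34.1 against 6.35 CPM, log2 ratio 1.79), and the laminin chain Lama5 (306 against 147 CPM, log2 ratio 1.03). Lad1, encoding a basement membrane filament protein, was at 13.0 against 303 CPM, log2 ratio −4.10, with 50 of 54 4T1 cells above all 4T1.2 cells.

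Vimentin, the mesenchymal intermediate filament, differed by less than 2-fold in sum but was spread widely among 4T1 cells. It lies outside the rule for named genes and was chosen after its values were seen. Summed Vim was at 2495 against 1478 CPM, a log2 ratio of 0.75. Single 4T1.2 cells held 896 CPM at the lowest, 2357 at the median and 4628 at the highest, whereas 4T1 cells ran from 13.7 over 962 to 4204 CPM. Of 54 4T1 cells 26 lay below the lowest 4T1.2 cell and 0 above the highest. In the bone wells described further on, summed Vim was at 3804 against 4259 CPM. Across the 54 4T1 cells, which share 1 culture label, log10 of CPM plus 1 of Vim and Cdh1 were correlated at −0.57 (Pearson) and −0.64 (Spearman), so cells with more Cdh1 tended to have less Vim. Sparc and Zeb2 had Pearson values of −0.54 and −0.50 with Cdh1, while Epcam, Krt19 and Krt14 had 0.71, 0.76 and 0.59. Fn1 and Thbs1 had −0.08 and 0.30. Points share 1 library group, cells differ in depth, and the values are descriptions over cells of 1 sample.

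Cells of 4T1 differed in how many epithelial genes they held above the range of 4T1.2. Over Cdh1, Epcam, Krt14, Krt19, Cldn7 and Cldn4, 21 of 54 4T1 cells exceeded the highest 4T1.2 cell in all 6 genes. A further 9 cells were at or under it in 1 gene, 12 in 2, 7 in 3, 4 in 4 and 1 in 5 genes, and 0 in 6. The mesenchymal list was centred on the median of all genes. Of 15 measured genes 3 were at least 2-fold higher and 3 lower, with a median log2 ratio of 0.05, equal to that of all genes to 2 decimals. Sparc, a matrix glycoprotein gene, was at 396 against 171 CPM, log2 ratio 1.19, with 59.8, 376 and 859.6 CPM in the lowest, median and highest 4T1.2 cell and 1.31, 104 and 621 in 4T1. Fn1, encoding fibronectin, was lower at 96.8 against 308 CPM, log2 ratio −1.62. Axl, a receptor kinase of mesenchymal-like tumour cells, was at 892 against 525 CPM, log2 ratio 0.76, Twist1 at 7.15 against 6.71 CPM, log2 ratio 0.05, and Cdh2, encoding N-cadherin, had 0 counts in 4T1.2 and stood at 0.00603 CPM in 4T1.

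The genes lowest in 4T1.2 were not at 0 there. Over the 12 genes furthest lower, the 4T1.2 level lay between 0.484% and 1.87% of the 4T1 level with a median of 0.613%. It was 0.484% for Epcam, 0.536% for Krt19, 0.590% for Cldn7 and 0.569% for Il1a, a cytokine gene. In the cells from bone described below, 23 wells of 4T1.2 held 0 counts of Epcam, Krt19, Cldn4, Il1a and Mal, where 3 counts would be 0.0458 CPM. Over the 12 genes furthest higher in 4T1.2 the 4T1 level was between 0.365% and 8.94% of the 4T1.2 level, with a median of 2.61%. The low levels of 4T1.2 were uneven among its cells. By running number, most of cells 39 to 52 held under 1 CPM each of Cdh1, Epcam, Krt14 and Krt19. Most of cells 1 to 38 held more of each. Where these low counts in culture came from was not tested.

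Chemokines were largely lower in 4T1.2. Of 13 measured chemokines and colony factors 8 were at least 2-fold lower and 1 higher, and the median log2 ratio was −1.75, or −0.67 when taken from the median cell. Cxcl5, a neutrophil attractant, was at 47.6 against 296 CPM, log2 ratio −2.52. Cells ran from 1.45 over 17.7 to 347 CPM in 4T1.2 and from 0.505 over 78.6 to 2232 in 4T1, and 18 4T1 cells lay above all 4T1.2 cells. Cxcl16, a membrane-bound chemokine gene, was at 28.4 against 206 CPM, log2 ratio −2.66. Cxcl1 at 145 against 280.2 CPM and Csf3, the granulocyte growth factor gene, at 178 against 255 CPM differed by less than 2-fold. Ccl2, the monocyte attractant, was the member higher in 4T1.2, at 102 against 42.7 CPM, log2 ratio 1.17, from cells between 0 and 1285 CPM with a median of 15.9.

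Among interleukins and TNF family genes 4 of 15 were at least 2-fold higher and 6 lower. Il1a encodes interleukin-1 alpha, an alarm cytokine of epithelial cells. It was at 1.00 against 176 CPM, log2 ratio −4.92, with 0.623, 147 and 641 CPM in the lowest, median and highest 4T1 cell and at most 3.65 CPM in any 4T1.2 cell. Most 4T1 cells thus stood clear of the other line, 47 of 54. Il24 was lower at 17.0 against 87.4 CPM. Il6ra, the interleukin-6 receptor gene, was higher at 56.5 against 10.9 CPM, log2 ratio 1.95, with 29 of 53 4T1.2 cells above all 4T1 cells. Of 20 NF-kB feedback genes and targets 5 were lower and 0 higher, with a median of −0.48. Icam1, an adhesion molecule for leukocytes, came from few cells: it was at 0.186 against 27.0 CPM, the median cell of both lines was at 0, and 6 4T1 cells exceeded the highest 4T1.2 cell.

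**Figure D3:**
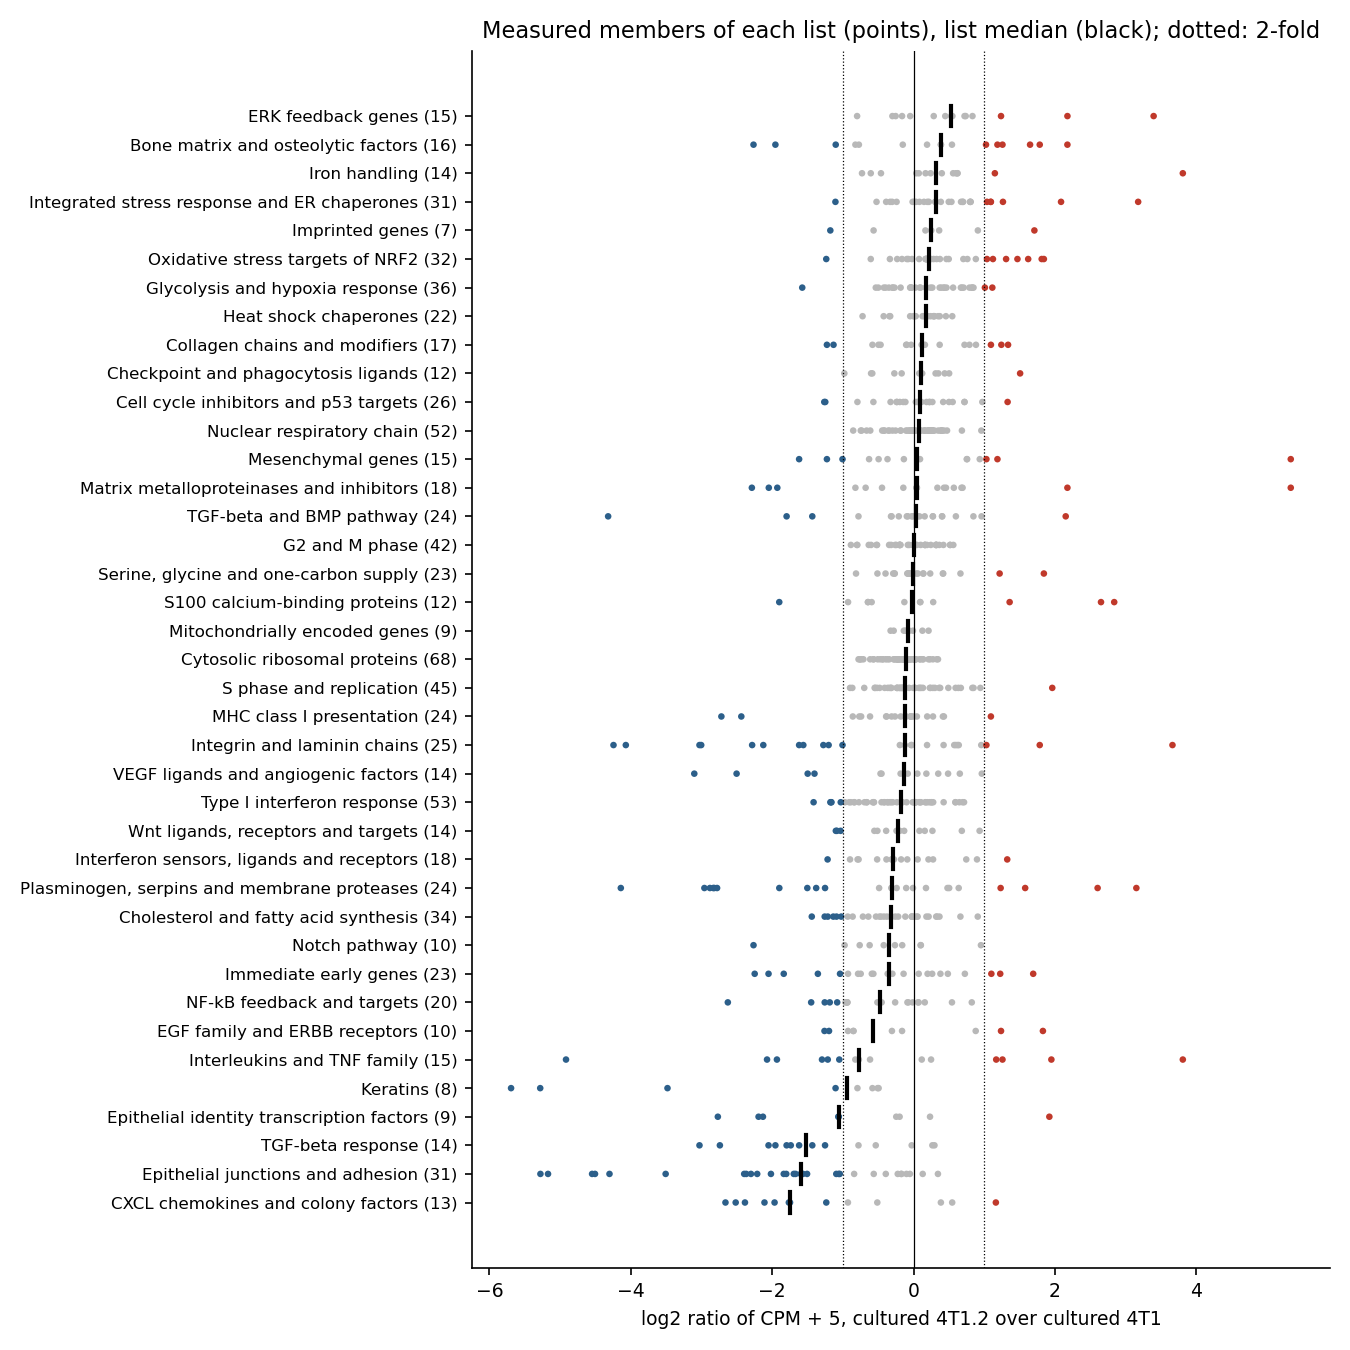
Log2 ratio of CPM plus 5, cultured 4T1.2 over cultured 4T1 (horizontal), for the measured members of each gene list with at least 5 of them (number in brackets), with the list median as a black bar and dotted lines at 2-fold. Chemokines, epithelial junctions and TGF-beta response genes have medians of −1.75, −1.60 and −1.53, while ribosomal, respiratory chain and mitotic genes gather around 0.

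Genes induced by TGF-beta were mostly lower, while its main receptors stood level. Of 14 measured response genes 9 were at least 2-fold lower and 0 higher, with a median log2 ratio of −1.53. Thbs1, encoding the matrix protein thrombospondin-1, was at 60.9 against 533 CPM, log2 ratio −3.03. Its cells stood at 0.466, 21.5 and 400.4 CPM (lowest, median, highest) in 4T1.2 and at 15.7, 472 and 2191 CPM in 4T1, so the ranges overlapped while the medians were far apart. The feedback inhibitors Pmepa1 and Smad7 were at 1.04 against 35.4 CPM and at 7.35 against 37.9 CPM, and 47 of 54 4T1 cells lay above all 4T1.2 cells in Pmepa1. Cyr61 and Ctgf, matrix-associated genes that the factors YAP and TEAD also induce, were at 145 against 618 CPM and at 44.6 against 187 CPM. Among ligands Inhba, the activin A chain, was at 1.09 against 117 CPM, log2 ratio −4.32. The receptor genes Tgfbr1 and Tgfbr2 were at 27.4 against 27.9 CPM and at 125 against 132 CPM. Tgfbr3, the coreceptor betaglycan, was higher at 23.1 against 1.32 CPM, log2 ratio 2.15, with 32 of 53 4T1.2 cells above all 4T1 cells.

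Proteases of the matrix went both ways. Of 24 plasminogen system, serpin and membrane protease genes 4 were at least 2-fold higher and 10 lower, and of 18 matrix metalloproteinase genes and inhibitors 2 were higher and 3 lower. Mmp3, encoding stromelysin-1, which cleaves matrix and E-cadherin, had the log2 ratio furthest above 0 of the named genes. Its cells held 9.16, 1098 and 7965 CPM (lowest, median, highest) in 4T1.2 and 3.39, 10.1 and 308 CPM in 4T1. Thus 43 of 53 4T1.2 cells lay above every 4T1 cell, and the sums were 1501 against 32.2 CPM, log2 ratio 5.34. Plau, the urokinase that activates plasminogen, was at 1050.5 against 168 CPM, log2 ratio 2.61, and its receptor gene Plaur at 617 against 259.6 CPM, log2 ratio 1.23. Cells for Plau stood at 5.33, 728 and 6769 CPM in 4T1.2 and at 12.9, 147 and 747 CPM in 4T1. Its median cell was higher in 4T1.2, but low 4T1.2 cells reached under the lowest 4T1 cell. Serpine2, a protease inhibitor gene, was at 251 against 23.8 CPM, log2 ratio 3.15, and Ctsl, encoding the lysosomal protease cathepsin L, at 3960.3 against 1321 CPM, log2 ratio 1.58.

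The membrane and serine proteases of epithelium stood on the other side. St14, which encodes matriptase, was at 2.69 against 131 CPM, log2 ratio −4.14, and 44 of 54 4T1 cells lay above all 4T1.2 cells. Tmprss11e, a further membrane protease gene, was at 8.73 against 96.1 CPM, the kallikrein gene Klk10 at 14.1 against 132 CPM and Serpinb5, encoding maspin, at 0.226 against 35.6 CPM. Adam8, a membrane metalloproteinase gene, was at 4.61 against 41.9 CPM, and Adamts1, a secreted one, at 9.73 against 55.9 CPM.

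Genes tied to bone matrix and its breakdown were mixed. Of 16 measured genes 6 were at least 2-fold higher and 3 lower in 4T1.2, with a median log2 ratio of 0.39. Mmp13, a collagenase of cartilage and bone, was at 31.9 against 3.15 CPM, log2 ratio 2.18, from cells between 0 and 352 CPM with a median of 11.8 in 4T1.2, and 6 of them above all 4T1 cells. Mgp, encoding a mineralization inhibitor, was at 18.1 against 2.37 CPM, and Il11, an osteoclast-promoting cytokine gene, at 20.0 against 5.44 CPM, log2 ratio 1.26, or 0.79 without cells holding an S100a9 count. Jag1, a Notch ligand, was lower at 5.26 against 44.3 CPM, log2 ratio −2.26. Gpnmb, also called osteoactivin, is a membrane glycoprotein of osteoblasts, macrophages and melanocytes. It stood at 312 against 6.50 CPM, log2 ratio 4.78, with 27.7, 248 and 1335 CPM in the lowest, median and highest 4T1.2 cell and 0, 1.66 and 84.8 CPM in 4T1. Above every 4T1 cell lay 44 of 53 4T1.2 cells.

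Feedback genes of the ERK pathway were higher on balance. ERK signalling induces its own inhibitors, whose RNA is often read as a measure of its output. Of 15 measured genes 3 were at least 2-fold higher and 0 lower, and the median log2 ratio was 0.53. Dusp6, an ERK phosphatase gene, was at 757 against 163 CPM, log2 ratio 2.18, with cells of 5.49, 645 and 1748 CPM in 4T1.2 and 3.23, 119 and 654 CPM in 4T1. Etv5, an ETS factor gene that lies in the chromosome 16 stretch described below, was at 281 against 22.1 CPM, log2 ratio 3.40. Among ligands of the EGF receptor family Tgfa was at 167 against 43.4 CPM, log2 ratio 1.83 and Hbegf at 305 against 127 CPM, log2 ratio 1.24, while Nrg1 was lower at 10.5 against 32.2 CPM, log2 ratio −1.26. Egfr, the receptor, was at 0.0232 against 6.50 CPM, with the median cell of both lines at 0. Ccnd1, the G1 cyclin, was at 1446 against 572 CPM, log2 ratio 1.33, and 26 of 53 4T1.2 cells lay above all 4T1 cells.

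Proliferation and housekeeping lists differed little. Of 45 S phase genes 1 was at least 2-fold higher, Cdc45 on chromosome 16, and 0 lower, and of 42 G2 and M phase genes 0 were 2-fold apart, with medians of −0.11 and 0.00. Of 52 nuclear respiratory chain and 68 ribosomal protein genes 0 were 2-fold apart, with medians of 0.07 and −0.11. Ribosomal protein genes leaned lower in 4T1.2: 53 of 68 had a log2 ratio under 0, where the median of all measured genes was 0.05. Their sum per cell had medians of 42483 CPM in 4T1.2 and 51185 CPM in 4T1, and 12 of 53 4T1.2 cells lay below all 4T1 cells. Of 31 genes of the integrated stress response and the endoplasmic reticulum 6 were higher and 1 lower. Dnajb11, an HSP40 cochaperone of the endoplasmic reticulum encoded on chromosome 16, was at 1248 against 133 CPM, log2 ratio 3.18, and 50 of 53 4T1.2 cells lay above all 4T1 cells. Sdf2l1, also on chromosome 16, was at 254 against 55.9 CPM, log2 ratio 2.09, and Hspa5, the chaperone BiP, at 4463 against 2092 CPM, log2 ratio 1.09.

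Of 32 targets of NRF2, the regulator of the oxidative stress response, 7 were at least 2-fold higher and 1 lower. Slc7a11, the cystine importer, was at 38.1 against 7.01 CPM, log2 ratio 1.84, Srxn1, which repairs peroxiredoxins, at 65.8 against 18.0 CPM, log2 ratio 1.62, and Akr1c13, an aldo-keto reductase gene, at 19.7 against 2.02 CPM, log2 ratio 1.81. Nqo1, a quinone reductase gene, was at 136 against 63.3 CPM, log2 ratio 1.04, while Hmox1, encoding heme oxygenase, stood at 40.5 against 64.2 CPM, log2 ratio −0.60. Cholesterol and fatty acid synthesis leaned the other way, with 6 of 34 genes lower, 0 higher and a median of −0.32. Fdft1 and Cyp51, enzymes of the sterol branch, were at 21.8 against 67.7 CPM and at 24.2 against 64.9 CPM.

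Interferon-induced genes differed little in culture. Of 53 measured genes 5 were at least 2-fold lower and 0 higher, with a median log2 ratio of −0.18. Ifi44 and Usp18, both strongly induced by type I interferon, were at 543 against 483 CPM and at 310.1 against 305 CPM. Of 24 genes of MHC class I presentation 2 were lower and 1 higher, and B2m, the class I light chain, was at 3233 against 2398 CPM, log2 ratio 0.43. H2-T24, a nonclassical class I gene whose reads may be shared with near-identical family members, was at 1.61 against 30.8 CPM. Tmem173, which encodes the DNA-sensing adaptor STING, was higher at 59.9 against 20.9 CPM, log2 ratio 1.33, with 21 of 53 4T1.2 cells above all 4T1 cells.

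Further genes far higher in 4T1.2 belonged to no single list. Slc2a5, a fructose transporter gene, was nearly separate: cells held 5.62, 60.2 and 266 CPM in 4T1.2 and 0, 0.307 and 21.2 CPM in 4T1, and 50 of 53 lay above all 4T1 cells. Arhgdib, an inhibitor of small GTPases best known from blood cells, was at 130.2 against 5.67 CPM, log2 ratio 3.66, with 50 cells above all 4T1 cells. It was high in all 4T1.2 cells, the lowest at 13.2 CPM. Deptor, an inhibitor of mTOR, was at 194 against 19.1 CPM, log2 ratio 3.04, Tfpi, the inhibitor of tissue factor, at 55.1 against 1.33 CPM, log2 ratio 3.25, and the low-affinity neurotrophin receptor gene Ngfr at 59.7 against 0.476 CPM, log2 ratio 3.56. Ckb, the brain-type creatine kinase gene, was at 103 against 5.01 CPM, log2 ratio 3.43, Sumo3, a small ubiquitin-like modifier gene, at 588 against 170.3 CPM, log2 ratio 1.76, and Plvap, encoding a protein of endothelial diaphragms, at 46.2 against 0.169 CPM, log2 ratio 3.31. The X-linked genes Xlr, Xlr3a and 3830403N18Rik were at 41.6 against 0.609 CPM, 28.6 against 0.235 CPM and 55.5 against 1.59 CPM. Xlr genes have near-identical copies between which reads may be split, so their levels are uncertain.

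Genes of other functions were also among those furthest lower in 4T1.2. Tnnt2, the cardiac troponin T gene, was at 6.65 against 211 CPM, log2 ratio −4.21, and 53 of 54 4T1 cells, all but 1, lay above every 4T1.2 cell. Dynap was at 0.279 against 73.6 CPM, log2 ratio −3.90, and Mal, encoding a lipid raft protein of apical transport, at 0.662 against 114 CPM, log2 ratio −4.40. Nrp1 and Flt1, coreceptor and receptor for VEGF, were at 0.598 against 43.1 CPM and at 0.342 against 25.3 CPM.

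Genes shared by neutrophils and epithelia were higher in 4T1.2, the line with higher levels of neutrophil markers. S100a8 was at 91.6 against 8.49 CPM, log2 ratio 2.84, and S100a9 at 26.8 against 0.0543 CPM, log2 ratio 2.65, in 17 cells of 4T1.2. Lcn2, an iron-binding secreted protein of neutrophils and epithelia, was at 259 against 13.8 CPM, log2 ratio 3.81, with a count in all 53 4T1.2 cells. In 230 wells of the series with over 10000 CPM of S100a8, Lcn2 was 19.8% of S100a8, while in 4T1.2 culture it was 282% of it. S100a9 was 62.1% of S100a8 in those wells and 29.2% of it in 4T1.2 culture. A single cell held 43.0% of the Lcn2 counts of 4T1.2, and without the highest cell of each line the log2 ratio was 3.22. It was 3.91 without the cells that held an S100a9 count. The source of these counts, and the part of neutrophil RNA in these differences, was not tested.

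Genes apart between the lines were not spread evenly over the chromosomes. Of 322 measured genes on chromosome 16, 56 (17.4%) were at least 2-fold higher in 4T1.2, against 4.17% of all genes, and 21 (6.52%) lower. The highest median over 25 consecutive measured genes lay at chr16:18253948-20717746 (GRCm38, GENCODE M21), where the median log2 ratio was 1.77 and 24 of 25 genes were at least 2-fold higher. Extended over neighbouring windows with at least 50% of that median, the stretch held 86 genes at chr16:14299244-29654884, of which 51 were at least 2-fold higher and 2 lower. Its edges depend on the window: the start moved between 14299244 and 17925223 and the end between 26105784 and 31961781 with windows of 15 or 41 genes or with cells weighted equally. Its genes have no shared pathway by name: Psmd2, a proteasome subunit gene, was at 1955 against 606 CPM, Eif4g1, the scaffold of cap-dependent translation, at 774 against 253 CPM, and Ap2m1, the mu chain of the clathrin adaptor, at 1114 against 365 CPM. In Psmd2, 48 of 53 4T1.2 cells lay above all 4T1 cells, and in Senp2, a SUMO protease gene further along, 51. Senp2 was at 725 against 64.8 CPM, log2 ratio 3.39, with cells of 50.2, 732 and 1265 CPM in 4T1.2 and 4.02, 68.4 and 153 in 4T1.

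Along chromosome 16 the ratio held different levels in turn. In consecutive blocks of 25 genes from the start of the chromosome, the medians were 0.03 and 0.00 in the first blocks, 0.24, 1.09 and 1.68 in the next, then 0.70, 0.55 and 0.24. Over chr16:38558698-98082450, up to the last measured gene, all 5 remaining blocks lay between −0.68 and −0.46. The lowest window of 25 genes of the genome was in this second part, at chr16:77013706-91405589 with a median of −0.75. The window held App, the amyloid precursor gene, at 28.8 against 70.2 CPM and Sod1, encoding a superoxide dismutase, at 288 against 533 CPM, log2 ratio −0.88. With windows of 15 or 41 genes, or with cells weighted equally, the lowest window instead lay on chromosome 8, with medians of −0.91, −0.70 and −0.77. On chromosome 8, 61 of 581 genes (10.5%) were lower, 5 higher, and the median log2 ratio was −0.51. Chromosome 19 had a median of −0.38 and 1 of 351 genes higher, and chromosomes 18 and 6 medians of 0.37 and 0.32. Cdh1 lies on chromosome 8, while Sfn lies on chromosome 4, Cldn4 on 5, Krt14, Krt19 and Cldn7 on 11, and Epcam on 17. Copy number was not measured here.

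**Figure D4:**
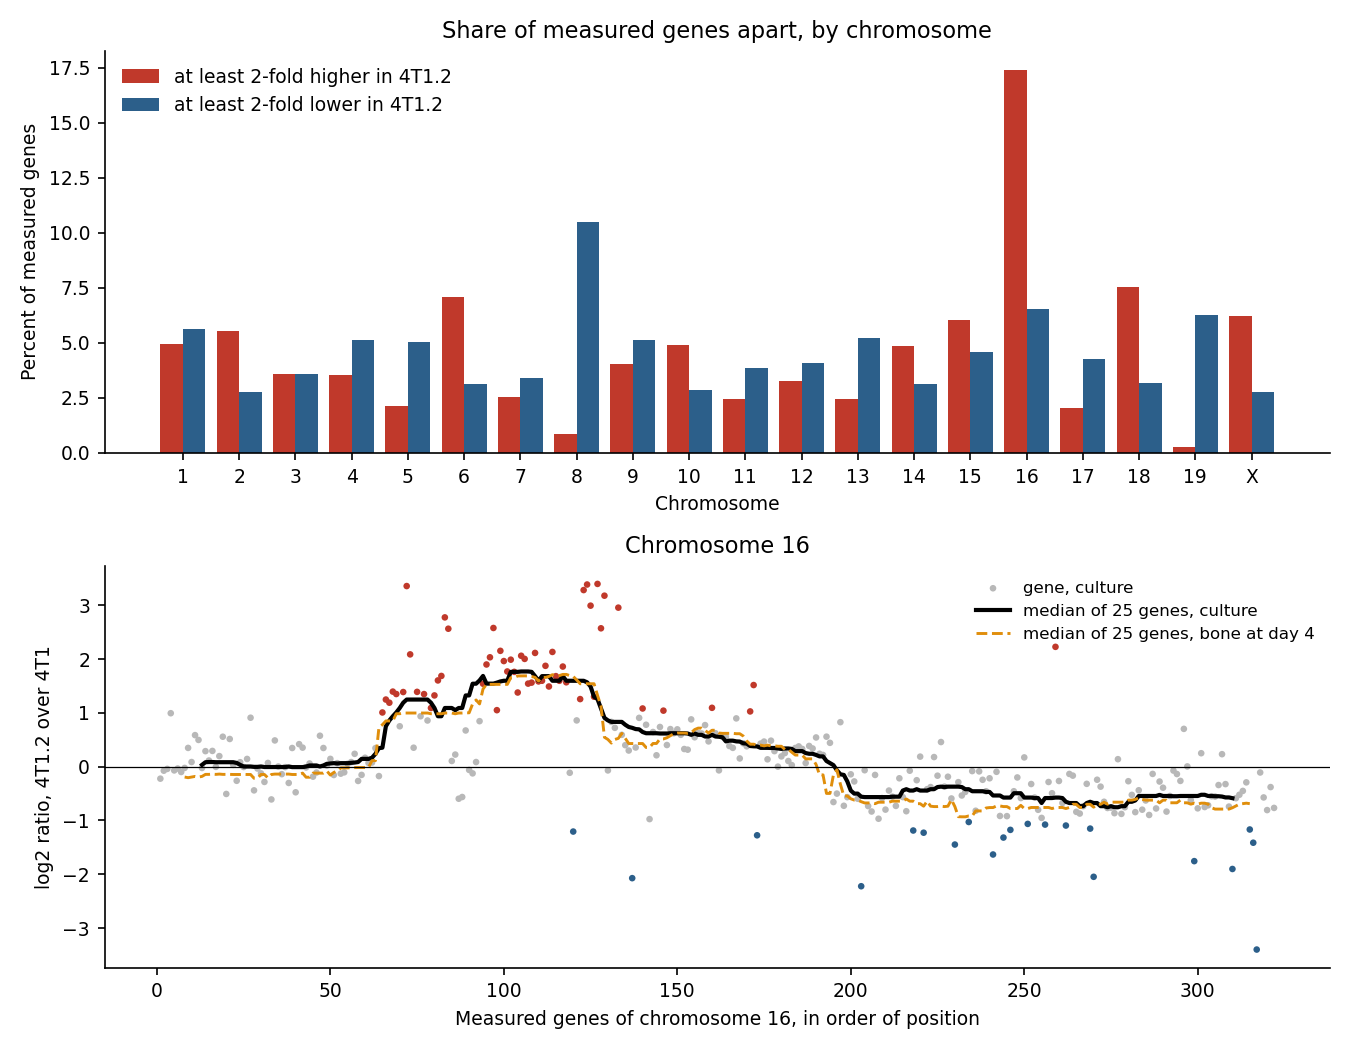
Upper panel: percent of measured genes on each chromosome at least 2-fold higher (red) or lower (blue) in cultured 4T1.2. Lower panel: log2 ratio of each measured gene of chromosome 16 in order of position (points), with running medians of 25 genes in culture (black) and in bone at day 4 (dashed), which both step up to about 1.7 and later below 0.

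The same lines were also sequenced from hindlimb bones of mice 4 days after intracardiac injection, which gives other cells for the same contrast. Many of those wells held host RNA, so wells were kept with at least 200 CPM of Krt8 plus Krt18 and under 300 CPM over 10 pan-haematopoietic markers. This left 23 of 235 wells of 4T1.2 and 126 of 496 of 4T1. Near the limits, whether kept or not, lay 15 of the 235 and 12 of the 496 wells. In kept wells the haematopoietic markers still summed to a median of 65.8 and 75.8 CPM. No animal is named for the wells, so each line was again 1 sample. In bone 2.61% of 9677 measured genes were at least 2-fold higher and 6.86% lower in 4T1.2, the background for the counts of list members there.

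Of the 462 genes lower in 4T1.2 culture, 373 were measured in bone. Of these 345 (92.5%) were also lower there, against 55.4% of all measured genes, and 217 (58.2%) at least 2-fold. Of the 422 genes higher in culture, 384 were measured and 289 (75.3%) were also higher in bone, against 44.6% of all, with 120 (31.2%) at least 2-fold. Opposite and at least 2-fold apart were 6 and 15 genes. Across the 9677 genes, which are not independent replicates, the log2 ratios of culture and bone were correlated at 0.558 (Pearson) and 0.457 (Spearman). The culture and bone comparisons share no cells.

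Epithelial lists were lower in 4T1.2 in bone too, the junction list less far than in culture. Of 26 junction genes measured in bone 12 were at least 2-fold lower and 1 higher. Their median log2 ratio was −0.68, against −1.60 over 31 genes in culture. Of 8 keratins 4 were lower and 0 higher, with a median of −0.89. Krt8 and Krt18, by which the wells were kept, are among these keratins and were lower in cultured 4T1.2. How this limit bears on the list values in bone was not tested. Among the genes furthest lower in culture, Epcam and Krt19 had 0 counts in the 23 wells of 4T1.2 and stood at 76.4 and 93.3 CPM in 4T1. Sfn was at 0.0458 against 222 CPM, Krt14 at 19.2 against 247 CPM and Grhl2 at 0.0305 against 22.0 CPM. Among higher genes Slc2a5 was at 48.4 against 0.0200 CPM, Plau at 426 against 80.6, Senp2 at 682 against 64.6 and Mmp3 at 891 against 282 CPM. Lcn2 stood level there, at 52.7 against 52.6 CPM, as did Deptor, at 165 against 169. In the chromosome 16 stretch of 86 genes 84 were measured in bone, with a median log2 ratio of 1.12 and 46 at least 2-fold higher.

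The medians of the chemokine and TGF-beta response lists were also closer to 0 in bone than in culture. Those of the interferon-induced and MHC class I lists lay further from 0 in bone. The median log2 ratio of the chemokine list was −0.59 in bone with 4 of 11 genes lower and 2 higher, and that of TGF-beta response genes −0.73 with 2 of 14 lower and 1 higher. Thbs1 in bone was at 63.0 against 97.8 CPM. Spp1, which encodes osteopontin, was named after its values were seen: it was at 1252 against 612 CPM in culture and at 529 against 2452 CPM in bone, the opposite direction. Of 53 interferon-induced genes 35 were at least 2-fold lower in 4T1.2 in bone, with a median of −1.35, against 5 and −0.18 in culture. Of all genes measured in bone 6.86% were lower and 2.61% higher. Of 23 genes of MHC class I presentation measured there 13 were lower, with a median of −1.06. The bone matrix list had a median of −0.30 in bone against 0.39 in culture, with 2 of 14 genes higher and 5 lower. The stress and endoplasmic reticulum list had −0.24 against 0.32, with 2 of 31 higher and 6 lower. The NRF2 list had −0.12 against 0.22, with 3 of 32 higher and 4 lower. ERK feedback genes stayed above 0 at 0.36, with 1 of 14 higher and 2 lower. Whether culture and bone differ in these lists was not tested.

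**Figure D5:**
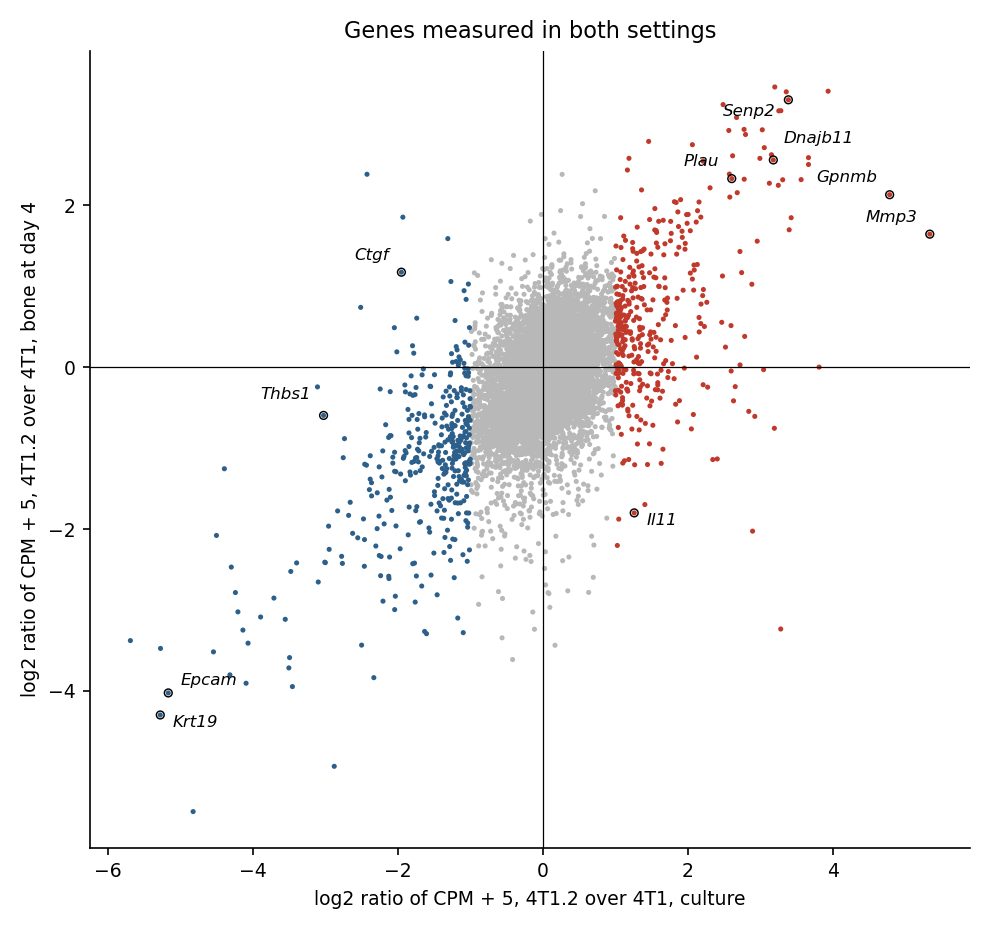
Log2 ratio of 4T1.2 over 4T1 in culture (horizontal) and in bone at day 4 (vertical) for the 9677 genes measured in both settings. Of the blue genes, at least 2-fold lower in culture, 92.5% lie below 0 in bone, and of the red genes, at least 2-fold higher in culture, 75.3% lie above 0; Ctgf and Il11 go opposite ways.

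The reporters themselves differed. The mCherry transcript was at 555 CPM in 4T1.2 and 938 CPM in 4T1, with medians per cell of 438 and 544 CPM. The luciGFP entry was at 89.4 CPM in 4T1.2 and 42.7 CPM in 4T1. Each cell of both lines held some of each reporter, the lowest 4T1.2 cell at 33.5 CPM of mCherry and the lowest 4T1 cell at 93.1 CPM. For luciGFP the lowest cells stood at only 0.581 CPM in 4T1.2 and 0.290 CPM in 4T1. In the bone wells mCherry was at 455 against 669 CPM. There luciGFP summed to 102 against 173 CPM, the opposite direction. The medians per well, 74.5 and 63.6 CPM, kept the direction of culture. The highest well stood at 245 CPM in 4T1.2 and at 8135 CPM in 4T1.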

How the data were processed

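Single cells were sequenced with a modified Smart-seq2 protocol as paired reads of 150 bases, per the labels' protocols. The deposited table holds raw read counts per gene symbol for 1248 cells. The submitters' processing notes name, without roles, the build mm10, STAR 2.6.0c and featureCounts 1.6.2. They also list Trim Galore 0.6.6 and FastQC 0.11.7, SAMtools 1.7, Seurat 3.1.2 and R 3.6.2. The annotation and the strand setting are not given in the sources used here. Reads of overlapping, antisense or near-identical genes may therefore be split or shared.

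From 40840 entries, 78 spike-ins, the reporters and 4 symbols turned into dates (0.0121% of counts) were left out of totals. Counts of passing cells were summed per line and scaled to CPM with TMM factors (edgeR 4.0.16 in R 4.3.3). Log2 ratios used a pseudocount of 5 CPM, which understates the change of low genes. A gene was measured at 5 CPM or more in either line, and called apart at 2-fold. With 1 sample per line no test was run. Statistics used Python 3.11.15 and numpy 2.4.6. The steps were tested on simulated counts of the culture comparison. All 50 genes planted at a log2 change of 2 and 48 of 50 at −2 passed 2-fold. Only 19 of 50 at 1 and 9 of 50 at −1 did, and 1 of 9581 unplanted genes. Simulated cells of both lines shared 1 profile, with independent noise per gene and cell. Differences between dishes, plates or cell states were not simulated, so the unplanted count does not cover them.

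Genes were named by a rule: at 20 CPM or more in the higher line, a count in at least 30% of its cells thinned to 500000 counts, and 2-fold apart with cells weighted equally. The 12 furthest in each direction, the 10 in each direction with the highest share of cell pairs in order, the 4 members of each of 40 lists furthest in the direction of its median and 2 the other way, ligands, receptors and sensors of described lists, and genes of the furthest windows were named. A further part, for genes at 3 counts or fewer in the other line, found 0 genes. Axl, Cldn3, Crb3, Csf3, Ctnnb1, Ctsl, Cxcl1, Dsc2, Dsg2, Dsp, Esrp1, Esrp2, Hspa5, Ifi44, Itgb1, Itgb4, Itgb6, Jup, Krt7, Krt18, Lama5, Nqo1, Perp, Plaur, Snai1, Spp1, Tgfbr1, Tgfbr2, Twist1, Usp18, Vim and the low genes Cdh2, Snai2 and Zeb1 lie outside the named set and were chosen after their values were seen. Members and lists were chosen with earlier results of these data known. Gene positions came from GENCODE M21 and promoters from RefSeq (GRCm38.p6). Alternatives covered scaling (including DESeq2 1.42.0 size factors), pseudocount, filters, cell weighting, thinning and the cell filter.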

Additional observations from a re-analysis of the deposited data

Results flagged for a closer look

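Ctgf and Il11 stood on opposite sides in culture and in bone at day 4, each by more than 2-fold. Ctgf, a matrix-associated target of TGF-beta, was at 44.6 CPM in cultured 4T1.2 against 187 CPM in cultured 4T1, a log2 ratio of −1.95. In bone it was at 76.2 CPM in 4T1.2 against 31.0 CPM in 4T1, a log2 ratio of 1.17. Il11 was at 20.0 against 5.44 CPM in culture, a log2 ratio of 1.26 that dropped to 0.79, under 2-fold, without cells holding an S100a9 count, and at 5.16 against 30.4 CPM in bone, a log2 ratio of −1.80. Each line was 1 sample in each setting, and the difference between the settings was not tested.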

How the results depend on the processing

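Over 13 alternatives to the processing, 0 of 288 named genes and 0 of 40 list medians turned from called in one direction to the opposite sign, and 231 genes and 35 medians stayed on their side of 2-fold in every alternative that gave a value. Of 3646 single values 97 crossed 2-fold or otherwise moved. With a pseudocount of 1 CPM 652 genes were at least 2-fold higher in 4T1.2, against 422. With a filter of 20 CPM, which leaves 7194 genes, 292 were lower, against 462. List medians lay past 2-fold for 5 lists, for 1 without a filter on low levels and for 3 with the median cell. The lowest window of neighbouring genes moved from chromosome 16 to chromosome 8 with other window sizes or cell weights, while the highest remained on chromosome 16. The alternative without cells holding an S100a9 count was chosen after seeing the data. No paired analysis was possible because each line was 1 sample and the numbers in the labels only count cells. With 1 sample per line, differences between dishes, plates or passages cannot be told apart from those between the lines. A value of 0 or near it in single cells is limited by depth, and reads were not counted as molecules.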
